A study of Sus scrofa with 14 samples.

Results

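Lymphatic endothelial nuclei of the porcine mammary gland are described here by stage. They are nuclei from 10 glands with at least 300 detected genes that carried transcripts of at least 2 of 6 lymphatic markers (MMRN1, FLT4, LYVE1, TBX1, RELN and GPM6A), among them MMRN1 or LYVE1. They carried no transcript of the exclusion genes EPCAM, COL1A1, RGS5, CD163, CD3E and BTNL9, which mark epithelium, fibroblasts, mural cells, macrophages, T cells and blood vessels. AQP1 belongs to that list too, but its symbol is absent from the gene names of the nuclei, so 6 of the 7 exclusion genes were applied. This gave 4412 of 127926 nuclei.

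Lymphatic endothelium lines the blind-ended capillaries and the valved collecting vessels that take up fluid, macromolecules and leukocytes from tissue and return them to the blood. PROX1 is the transcription factor that sets and keeps this identity, and VEGF-C, acting through the receptor FLT4 (VEGFR-3), drives growth and survival of the cells. LYVE1, a hyaluronan receptor, is strongest in the capillaries and weaker in collectors. In the mammary gland lymphatic vessels run in the stroma between lobules and along ducts and drain toward the regional lymph nodes.

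The study sampled the gland of multiparous sows at day 90 of gestation (G90), day 0 of lactation (L0), day 20 of lactation (L20), and day 2 (PI2) and day 7 (PI7) of natural involution. A stage held 2 sows, each giving 1 single-nucleus library from a snap-frozen piece of gland, and every group was untreated. Spatial sections came from 1 gland at G90 and 1 at PI2, and the milk cells of the series were not used here. Tissue came from a single place in the gland, so the place and the sow cannot be told apart from the stage in any one library, and p-values below measure the spread between sows.

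The 10 libraries held 18962138 to 53165191 unique molecular identifiers (UMIs, each marking 1 RNA molecule) and 9400 to 18694 nuclei past the gene minimum. Median UMIs of a lymphatic nucleus ranged from 961 to 2132 over glands, and summed UMIs of all lymphatic nuclei of a gland from 50054 to 2610369. The thinnest glands were PI2 sow 2 with 34 lymphatic nuclei, L0 sow 2 with 36 and L0 sow 1 with 72, so values from them rest on few nuclei. Any 2 libraries shared 52 to 205 cell barcodes, at most 1.23% of the smaller one, and 4 of 45 pairs shared 1 barcode of a lymphatic nucleus. A set of 5 milk genes, read as a sign of free RNA, summed to between 0.161 and 0.562 of their level in other nuclei, in CPM (summed UMIs scaled to a total of 1000000).

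The rule rejected 1940 of 6352 nuclei that had enough markers, through COL1A1 in 859, EPCAM in 629, CD163 in 511, CD3E in 122, RGS5 in 109 and BTNL9 in 75, with overlap. AQP1, looked up by its identifier, was present in 194 of the 6352. Among the members, 1194 nuclei (27.1%) carried exactly 2 markers, 1231 carried 3, 1101 carried 4, 710 carried 5 and 176 all 6. Just outside the rule lay 2494 nuclei with MMRN1 or LYVE1 as the single marker. The median over glands of the share of nuclei with a PROX1 UMI was 2.43% in those, 13.3% in members with 2 markers and 32.7% in members with 3 or more. For CCL21 the same medians were 8.02%, 19.3% and 47.05%, and for PTPRC, a leukocyte gene, 10.2%, 6.61% and 6.99%. Median UMIs per gland were 828 to 1437 in members with 2 markers, 1089 to 2263.5 in those with 3 or more and 1149 to 2067 in the nuclei just outside. Nuclei near the limit carried the lymphatic genes less often than those well inside it. These values are given with no test, and the part of depth in them was not tested.

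Of the 6 markers, MMRN1, a large secreted glycoprotein, was present in 91.4% of the members and FLT4 in 62.2%. RELN, an extracellular glycoprotein made by lymphatic endothelium, was present in 54.5%, LYVE1 in 50.2%, and the membrane glycoprotein GPM6A in 48.4%. TBX1, a transcription factor with a role in lymphatic growth, was present in 35.3%. The share with LYVE1 ran from 35.3% in PI2 sow 2 to 72.2% in L0 sow 1, and that with FLT4 from 29.3% in G90 sow 2 to 80.8% in PI2 sow 1. These shares describe how the nuclei entered the group and support nothing further. On the Sscrofa11.1 assembly, RefSeq places MMRN1 at chr8:129113951-129173413, FLT4 at chr2:78076008-78115137, LYVE1 at chr2:48937357-48954206, TBX1 at chr14:51289376-51297110, RELN at chr9:103460855-103963728 and GPM6A at chr15:38258496-38555129.

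Lymphatic nuclei made up from 0.362% to 7.78% of a gland. At G90 the shares were 3.31% (380 nuclei) in sow 1 and 1.15% (215) in sow 2. At L0 they were 0.627% (72) and 0.382% (36), the lowest pair of any stage. At L20 sow 1 had 1.09% (141) and sow 2 had 5.75% (881). The sows of PI2 lay furthest apart, at 7.78% (969; exact 95% interval 7.32 to 8.26%) and 0.362% (34; 0.251 to 0.505%), a 21.5-fold gap. At PI7 the shares were 6.87% (1146) and 5.34% (538), both above those of G90 and L0. Such intervals cover counting error only, and sows of G90, L20 and PI2 differed by far more than that error.

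The G90 sows averaged 2.23% ± 1.53 (SD, n = 2), those of L0 0.505% ± 0.173, those of L20 3.42% ± 3.29, those of PI2 4.07% ± 5.25 and those of PI7 6.10% ± 1.08. Differences between stages took up 49.0% of the variation in the log2 share, a share that did not pass the test over all splits of the glands into pairs (exact permutation test, one-sided p = 0.380, Benjamini-Hochberg adjusted p over 3 tests = 0.380). This value moved with single glands, to 81.2% without PI2 sow 1 and 79.7% without PI2 sow 2 (exact permutation p = 0.109 and 0.126), and 44.3% and 36.4% without L0 sow 1 and L0 sow 2. The 4 glands of lactation (L0 and L20) averaged 1.96% ± 2.54 and the 6 glands of the other stages 4.14% ± 3.03. The difference of -2.17 percentage points gave a two-sided exact permutation p of 0.271 (n = 4 and 6, adjusted p = 0.380), where the smallest p this design allows is 0.00476. Without L20 sow 2 the difference was -3.44 percentage points (two-sided exact permutation p = 0.0952), and with any 1 gland left out it kept its sign.

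Blood vessel endothelial nuclei numbered 928, from 12 in G90 sow 2 to 319 in PI7 sow 1. They had UMIs of at least 2 of AQP1 (looked up by its identifier), BTNL9, FLT1 and PLVAP, among them AQP1 or BTNL9. They carried no UMI of EPCAM, COL1A1, RGS5, CD163, CD3E, MMRN1 or LYVE1. The term all other nuclei stands for every nucleus past the gene minimum that is not a lymphatic member. It takes in the blood vessel nuclei, the nuclei rejected by the exclusion genes and those with a single marker. Lymphatic nuclei were 80.7% and 94.7% of the nuclei of both kinds in the G90 sows, 47.4% and 62.1% in the L0 sows, 64.4% and 89.1% in the L20 sows, 94.0% and 52.3% in the PI2 sows, and 78.2% and 81.2% in the PI7 sows. Both groups overlapped: the lactation glands averaged 65.7% ± 17.3 and the others 80.2% ± 15.4. The difference of -14.45 percentage points did not pass the two-sided exact permutation test (p = 0.195, n = 4 and 6, adjusted p = 0.380). It was -20.0 percentage points without PI2 sow 2 (exact permutation p = 0.0556) and -8.33 without L0 sow 1 (exact permutation p = 0.464). A share depends on the numbers of all nuclei released from a piece of tissue, so fewer lymphatic nuclei and more nuclei of other kinds cannot be told apart. Lymphatic and blood vessel nuclei were also found by different markers and exclusions. Percentages of both kinds are therefore not the lymphatic share of all endothelial nuclei. How many nuclei each rule misses was not tested.

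**Figure D1:**
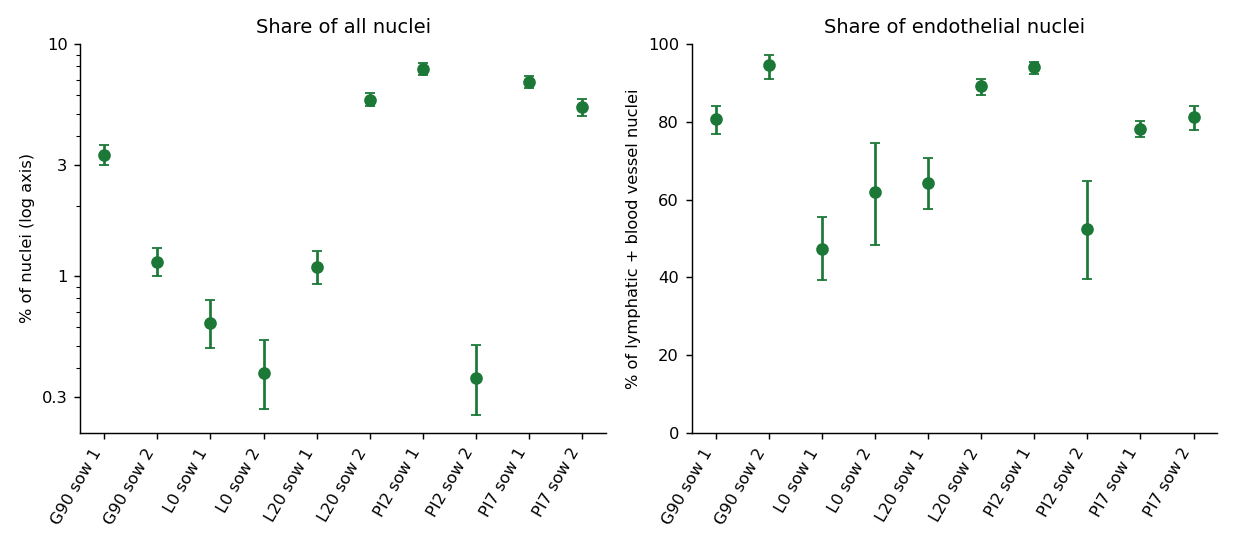
Left, lymphatic nuclei as a percentage of all nuclei with at least 300 genes, on a log axis; right, as a percentage of lymphatic plus blood vessel nuclei. Points are glands and bars exact 95% binomial intervals: both L0 glands lie under 1% on the left, while the 2 sows of PI2 lie at 7.78% and 0.362%.

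Lymphatic identity outside the rule was read from 25 genes, of which 23 were measured. In every one of the 10 glands 16 of the 23 were higher in lymphatic than in blood vessel nuclei and 0 were lower in every gland. Their median log2 ratio was 2.43 (CPM with 10 added), against 0.14 over all genes tested. Of 25088 genes with a UMI in either kind, 499 were higher (1.99%) and 345 lower (1.38%) in lymphatic nuclei of every gland. Of the 11276 genes with enough UMIs to be tested between stages 4.43% were higher and 2.86% lower, and the counts of the lists are read against these shares. Since both kinds were chosen by their transcripts, this contrast is a description without a test.

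PROX1 (chr9:129527704-129583693) stood at 235 and 325 CPM in the G90 sows, 204 and 679 in the L0 sows, 75.0 and 255 in the L20 sows, 111.5 and 108 in the PI2 sows, and 241 and 136 in the PI7 sows, and at 27.8 CPM or less in blood vessel nuclei of any gland. A PROX1 UMI was present in 24.8% of lymphatic nuclei (range over glands 7.80 to 41.7%), against 2.26% of blood vessel and 2.56% of all other nuclei, whose median UMIs per gland were 1405 to 2935 and 1408 to 2508. With each nucleus thinned to 1000 UMIs, which left out 919 shallower lymphatic nuclei, these were 16.5%, 0.731% and 1.29%. PDPN, the ligand of the platelet receptor CLEC2, stood at 54.0 to 546 CPM, lowest in PI2 sow 2, and at 18.3 CPM or less in blood vessel nuclei. In summed CPM, PROX1, CCL21 and PDPN each stood above the level in blood vessel nuclei of the same gland in all 10 glands.

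CCL21 (chr10:32093783-32094482), the chemokine that draws CCR7-bearing dendritic cells and lymphocytes into lymphatics, stood at 504 and 275 CPM in the G90 sows, 2328 and 739 in the L0 sows, 118 and 552 in the L20 sows, 662 and 234 in the PI2 sows, and 722 and 1594 in the PI7 sows. Blood vessel nuclei reached 34.1 CPM at most and all other nuclei 70.7 CPM. Lymphatic nuclei held 6390 of the 16314 CCL21 UMIs found in the nuclei (39.2%). This part ran from 2.38% in L20 sow 1 and 2.86% in PI2 sow 2 to 52.0% in both PI7 glands. A CCL21 UMI was present in 43.2% of lymphatic nuclei (range over glands 10.6 to 68.1%), 2.91% of blood vessel and 5.36% of all other nuclei, or 34.4%, 1.46% and 2.75% after thinning. In L20 sow 1, the lowest, it was present in 10.6% of lymphatic nuclei (exact 95% interval 6.08 to 16.9) and 6.41% of blood vessel nuclei (2.11 to 14.3), intervals that overlap. ACKR4, a scavenging receptor that removes CCL21, was at 11.9 CPM or less in lymphatic nuclei and reached 60.7 CPM in all other nuclei of L20 sow 2. The change of CCL21 from L0 to L20, -2.08 ± 0.71 (log2 ± SE), did not pass the edgeR test (adjusted p = 0.715, Benjamini-Hochberg).

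The 10 genes with the largest median log2 ratio over blood vessel nuclei, the 2 rules' genes left out, were REEP1 (5.10), CCL21 (4.88), SEMA3D (4.87), THSD4 (4.71), SYNPR (4.63), MEIS2 (4.37), PDPN (4.34), TRPC6 (4.33), PARD6G (4.29) and MRC1 (4.17). SEMA3D is a secreted guidance cue, MEIS2 a homeodomain transcription factor, TRPC6 a calcium-permeable channel and PARD6G a polarity protein. REEP1, which shapes the endoplasmic reticulum, stood at 273 to 704 CPM in lymphatic and 0 to 30.1 CPM in blood vessel nuclei. MRC1, the mannose receptor CD206, is carried by lymphatic endothelium and macrophages, and stood at 134 to 593 CPM against 0 to 37.0 CPM in blood vessel nuclei. At the other end, and chosen after its values were seen, was MECOM, a transcription factor of arterial and other blood endothelium (median log2 ratio -5.22), at 9.09 to 132.5 CPM in lymphatic and 1577 to 2813 CPM in blood vessel nuclei.

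**Figure D2:**
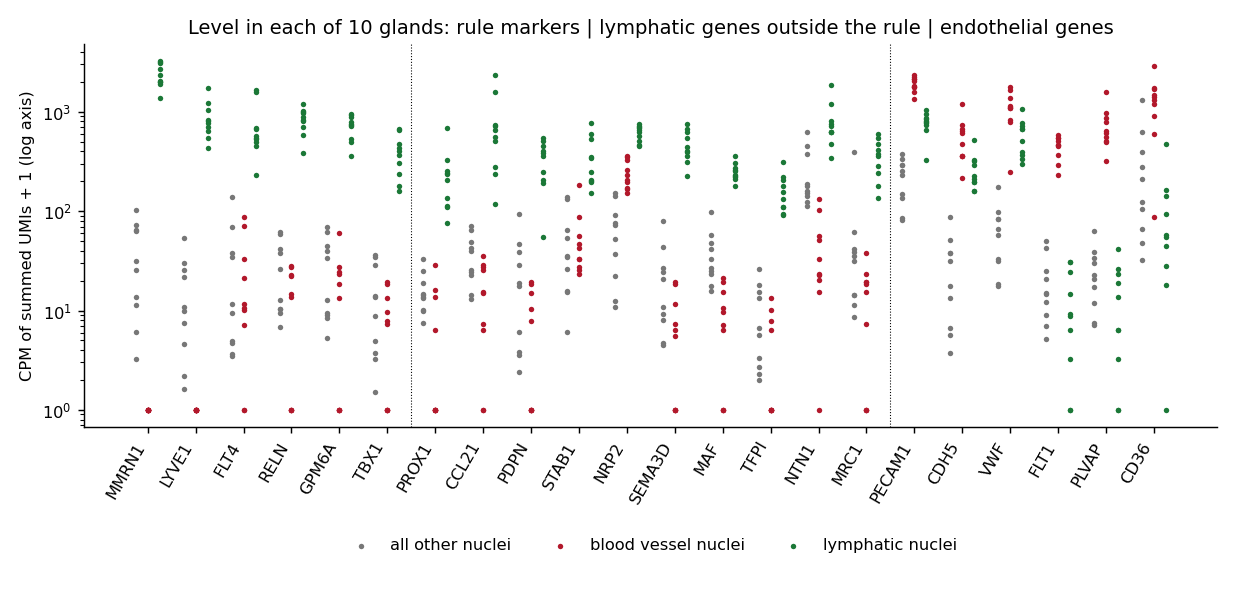
Level of 22 genes in each of 10 glands (points), as CPM of summed UMIs plus 1 on a log axis, in lymphatic, blood vessel and all other nuclei; a point at 1 is a gland without a UMI. Genes left of the first dotted line chose the lymphatic nuclei. Blood vessel nuclei were chosen by at least 2 of AQP1, BTNL9, FLT1 and PLVAP, among them AQP1 or BTNL9, without MMRN1 or LYVE1. PROX1, CCL21 and PDPN lie above blood vessel nuclei in every gland.

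Of the VEGF-C pathway, 22 genes were measured and 1 was higher and 4 lower than in blood vessel nuclei of every gland (median log2 ratio 0.15). NRP2, the co-receptor that binds VEGF-C, was the higher one, at 454 to 750 CPM against 150 to 356. KDR (VEGFR-2), which both kinds of vessel use, stood at 360 to 695 CPM in lymphatic and 122 to 934 in blood vessel nuclei. CALCRL, the receptor that with RAMP2 binds adrenomedullin, stood at 145 to 630 CPM. ACKR3, which scavenges adrenomedullin and CXCL12, stood at 40.0 to 557 CPM. FLT1, NRP1 and PTPRB were lower in all 10 glands, and FLT1 is a gene of the blood vessel rule. VEGFC itself was nearly absent from lymphatic nuclei, at 0 to 16.3 CPM, and reached 191 CPM in blood vessel nuclei.

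Genes of leukocyte traffic were split, with 5 of 31 higher and 6 lower than in blood vessel nuclei of every gland. Besides CCL21 and MRC1, the scavenger receptor STAB1 stood high, at 150 to 771 CPM against 22.2 to 184. Of the list for valves and collecting vessels, 4 of 24 were higher in every gland and 2 lower. ITGA9, the integrin chain needed for valve leaflets, stood at 589 to 1208 CPM and the planar polarity cadherin CELSR1 at 123 to 549. FOXP2, a transcription factor of collecting vessels, stood at 162 to 420 CPM. FOXC2, the master gene of valves, was at 5.36 CPM or less in all glands and at 0 in 5 of them.

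Of junction genes 3 of 20 were higher and 8 lower, against 4.43% and 2.86% of all genes tested. MAGI1, a scaffold of junctions, stood at 1071 to 3470 CPM in lymphatic and 1468 to 5449 in blood vessel nuclei. AFDN, PARD6G and CGNL1 were higher in every gland, whereas PECAM1 (324 to 1052 CPM against 1357 to 2351), CDH5, ESAM and ROBO4 were lower in every gland. A PECAM1 UMI was present in 63.9% of lymphatic and 88.4% of blood vessel nuclei, and in 26.1% of all other nuclei (52.1%, 79.2% and 16.1% after thinning). Of pan-endothelial genes 13 of 22 were lower and 1 higher (median log2 ratio -1.09). LDB2, a cofactor of LIM transcription factors, stood at 1075 to 2304 CPM, VWF at 296 to 1058 and EMCN at 305 to 599. Of the blood vessel list, 0 of 21 were higher and 10 lower in every gland.

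Axon guidance genes, which endothelium uses to steer growth, were the list with most members higher after identity itself, 9 of 27 (median log2 ratio 0.73), with 3 lower. SEMA6A stood at 412 to 1725 CPM against 239 to 1015 in blood vessel nuclei. NTN1 stood at 340 to 1873 CPM against 0 to 131. SLIT3 stood at 403 to 1141 CPM against 14.4 to 197. NTN1, NRP2 and SEMA3D are in the identity list too, so these counts are not separate.

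In 3 further lists more members were lower than higher than in blood vessel nuclei of every gland, beside 2.86% lower and 4.43% higher of all genes tested. In the matrix list 2 of 28 were higher and 7 lower in every gland, with the laminin chain LAMA4 at 509.5 to 1384 CPM and the protease inhibitor TIMP3 at 334 to 991. In the list of TGF-beta, BMP and Notch genes 2 of 28 were higher (TGFB2 and NOTCH1) and 7 lower, with the receptor TGFBR2 at 413 to 712 CPM. Lipid handling had 1 of 23 higher and 6 lower, with the cholesterol exporter ABCA1 at 140 to 717 CPM. Of hormone receptors 1 of 17 was higher, NR3C2, the mineralocorticoid receptor, at 209 to 613 CPM, beside the thyroid hormone receptor THRB at 257 to 856 CPM and the growth hormone receptor GHR at 230 to 964. PRLR, the prolactin receptor, was chosen after its values were seen: it stood at 397 and 366 CPM in the G90 sows, 171 and 420 in the L0 sows, 112.5 and 48.1 in the L20 sows, 534 and 18.0 in the PI2 sows, and 138 and 248 in the PI7 sows. In all other nuclei PRLR stood at 132 to 1950 CPM, and the part of free RNA in the lymphatic values was not tested.

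Immediate early and NF-kappa-B genes had 5 of 27 higher in every gland (KLF2, KLF4, KLF6, EGR1 and IER3) and 0 lower. KLF2, a transcription factor that responds to flow, stood at 277 to 1210 CPM against 0 to 475 in blood vessel nuclei. DUSP1, a phosphatase of MAP kinases, stood at 359 to 2080 CPM. Of stress genes 3 of 20 were higher and 1 lower. DDIT4, an inhibitor of mTOR signalling, stood at 220 to 1756 CPM, and TXNIP, which binds thioredoxin, at 371 to 1247. Of 29 interferon genes 0 were higher and 4 lower, and for 24 cell cycle genes and 9 milk genes both counts were 0.

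Markers of other cell types had summed levels of 180 to 691 CPM (macrophage, MRC1 included), 0 to 300 (T and NK cell), 36.0 to 472 (B and plasma cell), 420 to 1028 (fibroblast), 81.4 to 309 (mural), 197 to 1554 (epithelial), 193 to 878 (adipocyte) and 63.25 to 479.5 CPM (Schwann and neural). Median sums over glands were lower in lymphatic than in all other nuclei for 6 of these 8 lists. The exceptions were macrophage markers (546 against 193 CPM) and adipocyte markers (489 against 137 CPM). The macrophage exception came from MRC1, a gene of the identity list too: without it the other 11 markers had a median sum of 125 CPM in lymphatic and 169 CPM in all other nuclei, and were higher in lymphatic nuclei in 2 of 10 glands. The adipocyte exception came from PDE3B, a phosphodiesterase (median 436 against 114 CPM), while ADIPOQ and PLIN1, which define adipocytes, had medians of 2.36 and 2.42 CPM against 4.45 and 3.98. Single glands departed from these medians. Fibroblast markers were higher in lymphatic nuclei of G90 sow 2 (761 against 290 CPM), L0 sow 1 (513 against 340), L0 sow 2 (420 against 130) and PI2 sow 2 (828 against 228). In the remaining glands they were lower. B and plasma cell markers were higher in L0 sow 1 only, and Schwann and neural markers in PI2 sow 2 only. Blood vessel markers, outside these 8 lists, had a median sum of 1522.5 CPM against 222 in all other nuclei. The rule itself removed nuclei with 1 marker each of 6 cell types, and what other cells or free RNA add to the remaining levels was not tested.

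Between stages, 11276 genes could be tested in lymphatic nuclei with edgeR, and few passed an adjusted p of 0.05 with a fold change over 2. From G90 to L0 1 gene passed (0.00887% of all genes), from L0 to L20 6 passed (0.0532%), all lower, and between L20, PI2 and PI7 0 at either step (0% and 0%). In lactation against the other stages 3 passed (0.0266%), all higher, and 20 differed over the 5 stages (0.177%). At the steps without a call, 516 (L20 to PI2) and 289 (PI2 to PI7) genes had an unadjusted p under 0.05 in edgeR, and DESeq2 called 4 and 0. For the other 4 comparisons DESeq2 called 2, 20, 11 and 45. Single glands moved these counts. From G90 to L0 27 genes passed without L20 sow 1, and 0 without either L0 sow or PI2 sow 1. From L0 to L20 42 passed without L20 sow 1 and 1 without either L0 sow. From L20 to PI2 28 and 30 passed without L20 sow 1 and L20 sow 2, from PI2 to PI7 7 without G90 sow 2, and in lactation 44 without L20 sow 2.

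No gene of the lymphatic identity, VEGF-C, valve, junction or axon guidance lists passed any of these stage tests. Median log2 changes of the identity list were 0.14, -0.10, -0.33 and 0.47 from stage to stage, against -0.21, 0.25, -0.08 and 0.06 over all genes tested. MMRN1 stood at 2360 and 3108 CPM in the G90 sows, 3216 and 2058 in the L0 sows, 3138 and 1893 in the L20 sows, 1365 and 1981 in the PI2 sows, and 2722 and 1987 in the PI7 sows. LYVE1 stood at 699 and 1031, 1726 and 1239, 835 and 801, 545 and 432, and 635 and 762 CPM in the same order. LYVE1 was highest in both L0 glands. MMRN1 and LYVE1 belong to the rule, so their levels are set in part by it and are given with no test.

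FLT4 set 2 glands apart from the others. It stood at 1646 CPM in PI2 sow 1 and 1593 in PI7 sow 2, and at 230 to 691 CPM in the other 8. The same 2 glands held the highest lymphatic levels of NTN1 (1192 and 1873 CPM), DUSP1 (1802 and 2080), NOTCH1 (728 and 581) and AFDN (904 and 767), all chosen after their values were seen. All other nuclei of these glands were also high in FLT4 (139 and 67.6 CPM), NOTCH1 (283 and 204) and NTN1 (450 and 632). They include 363 and 246 nuclei that had enough lymphatic markers but were rejected by the exclusion genes. Members held 46.5% and 50.4% of the FLT4 UMIs of these 2 glands, within a range of 31.4 to 57.2% over all glands. FLT4 belongs to the rule, so its level in the members is set in part by their choice. Scrublet's own limit marked 77 and 24 lymphatic nuclei of these 2 glands as doublets. In each of the other 8 it marked at most 1 barcode of any kind, so its 0 lymphatic nuclei there give no comparison. The highest 5% of scores held 7.53% and 4.65% of the lymphatic nuclei of these 2 glands and 0 to 10.7% of those elsewhere. The part of doublets in the gene levels above was not tested. Over all genes tested, levels in lymphatic nuclei of PI2 sow 1 and PI7 sow 2 had a Spearman correlation of 0.927. L20 sow 2 and PI7 sow 1 stood at 0.932. Between the 2 sows of a stage it was 0.857 (G90), 0.677 (L0), 0.664 (L20), 0.674 (PI2) and 0.857 (PI7). Some glands of different stages were thus more alike than sows of the same stage, and the part of depth in this was not tested.

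**Figure D3:**
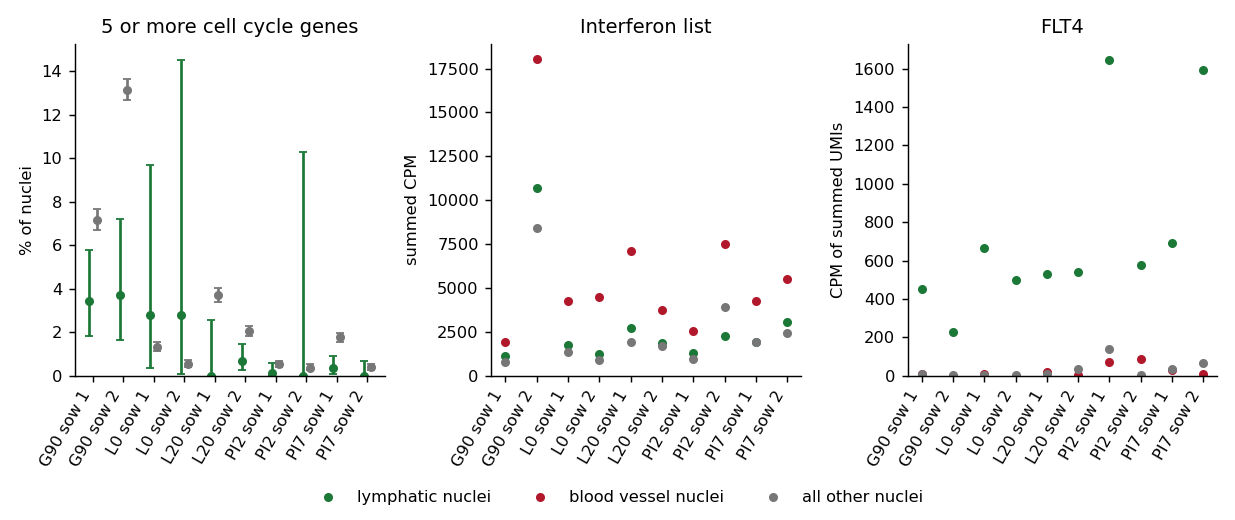
Left, share of nuclei with UMIs of 5 or more of 24 cell cycle genes in lymphatic and all other nuclei, with exact 95% intervals; middle, summed CPM of 29 interferon and antigen presentation genes; right, FLT4 in CPM. The first 4 glands have 2.78 to 3.72% lymphatic nuclei with cell cycle genes, G90 sow 2 stands at 10690 CPM for interferon genes, and PI2 sow 1 and PI7 sow 2 stand at 1646 and 1593 CPM for FLT4.

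The genes that fell from L0 to L20 were milk genes and 3 without a symbol. CSN1S1, which encodes a casein, stood at 1376 and 1398 CPM at L0 and 5.36 and 5.95 at L20, a change of -7.74 ± 0.97 (log2 ± SE, edgeR adjusted p = 0.000756). PAEP, a whey lipocalin gene, fell by 5.76 ± 0.94 (adjusted p = 0.00892) and CSN3, kappa-casein, fell by 5.29 ± 0.97 (adjusted p = 0.0354). CSN1S1 passed in all 23 alternatives, PAEP in 20 and CSN3 in 15, with PAEP and CSN3 lost without either L0 sow, and CSN3 also without L20 sow 2 or PI2 sow 1. Milk genes were higher in all other nuclei of the same glands: 5 of them summed to 9216 and 7372 CPM in lymphatic nuclei at L0 and to 16390 and 14200 CPM in other nuclei. From G90 to L0 the single gene called has no symbol (ENSSSCG00000016731), at 0 and 13.6 CPM at G90 and 1571 and 919 CPM at L0. It was not called without L0 sow 1, L0 sow 2 or PI2 sow 1 (edgeR adjusted p = 0.653, 0.0512 and 0.0565), nor by DESeq2 (adjusted p = 0.681).

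Higher in lactation were that gene, ND2 and MGP. ND2, a mitochondrial subunit of respiratory complex I, stood at 366 and 739 CPM at L0 and 771 and 593 at L20, and at 43.3 to 286 CPM in the other 6 glands, a change of 2.21 ± 0.35 (log2 ± SE, edgeR adjusted p = 0.0162). In all other nuclei ND2 stood at 165 and 129 CPM at L0 and 1219 and 1187 at L20. The median mitochondrial share of UMIs in lymphatic nuclei was 0.964% and 2.12% in the L0 sows, 1.84% and 0.603% in the L20 sows and 0.0800 to 0.937% in the other 6 glands. ND1 and ND5, of the same complex and chosen after their values were seen, stood at 326 to 1039 and 529 to 1019 CPM in the lactation glands and at 83.5 to 306 and 40.9 to 410 CPM in the others. ND3, ND4L and COX2, mitochondrial as well, overlapped: their lowest lactation glands stood at 81.4, 84.2 and 1099 CPM and G90 sow 1 at 238, 112 and 1484 CPM. The part of the mitochondrial share in the ND2 change was not tested. MGP, an inhibitor of calcification of matrix and vessel walls, stood at 1376 and 919 CPM at L0, 369.5 and 78.3 at L20 and 51.6 to 144 in the other glands (2.26 ± 0.40, adjusted p = 0.0473). Its glands overlapped between lactation and the other stages through L20 sow 2, and all other nuclei had 2388 and 1457 CPM at L0. Without L0 sow 1, L0 sow 2 or PI2 sow 1, 0 genes passed in this comparison, and MGP did not pass without PI2 sow 2 either (edgeR adjusted p = 0.0739).

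Of the 20 genes that differed over the 5 stages 16 have a symbol, and 4 of those are milk genes (CSN1S1, PAEP, CSN3, CSN2). PAPLN, a matrix protein (chr7:96584894-96622487), stood at 175 and 479 CPM in the G90 sows, 138 and 120 in the L0 sows, 10.7 and 3.47 in the L20 sows, 76.5 and 0 in the PI2 sows, and 7.28 and 5.75 in the PI7 sows (adjusted p = 0.000239, edgeR). MCOLN2, an endolysosomal channel, stood at 125 to 300 CPM at G90 and L0 and 10.7 to 45.7 in the later stages (adjusted p = 0.00270). CORO2B (a coronin) and FABP3 (a fatty acid binding protein) were also higher in each of these 4 glands than in any later one, at 170 to 354 and 79.9 to 159 CPM against at most 89.55 and 53.55 CPM. MSTN (myostatin) stood at 45.5 to 81.4 CPM in 3 of them and 18.4 CPM or less later, while its 20.0 CPM in L0 sow 2 was below the 59.9 CPM of 3 UMIs. SPP1 (osteopontin) stood at 0 to 32.6 CPM at G90 and L0 and 71.8 to 1588 after that (adjusted p = 0.0103). CTSD, a lysosomal protease, stood at 27.3 to 68.8 CPM in those 4 glands and 18.0 to 412 after that (adjusted p = 0.0469), lowest in PI2 sow 2. PRR16, highest in L20 sow 1 at 353 CPM, closes the list with ND2 and MGP. Setting G90 and L0 against the later stages was chosen after these values were seen and has no test of its own.

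Of the 20 genes 19 were higher in all other nuclei than in lymphatic nuclei in most glands, and 10 of them in every gland. PAPLN, for example, stood at 559 and 1394 CPM in other nuclei at G90 and at 14.2 and 11.3 at L20. A test of whether the stage pattern in lymphatic nuclei differed from that in all other nuclei, added after the data were seen, was passed by 1 of the 20, DIAPH3 (adjusted p = 0.0305, edgeR), and not by it without L0 sow 1, L0 sow 2 or PI2 sow 1 (adjusted p = 0.0549, 0.339 and 0.0510). CENPF did not pass it (adjusted p = 0.0807, edgeR), but passed with 1 gland left out in 8 of 10 cases, all but L0 sow 2 and PI2 sow 1 (adjusted p = 0.960 and 0.117). CSN1S1, PAPLN, MCOLN2 and PAEP passed the 5-stage test in all 22 alternatives, and the other 12 named genes in 14 (CTSD) to 21 (CSN3) of them, MSTN in 15. Without L0 sow 1 or L0 sow 2 the number of genes called fell from 20 to 9, without PI2 sow 1 it fell to 10. It rose to 213 without L20 sow 1 and to 150 without L20 sow 2, to 95 and 97 without either G90 sow, and to 82 and 78 without either PI7 sow.

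**Figure D4:**
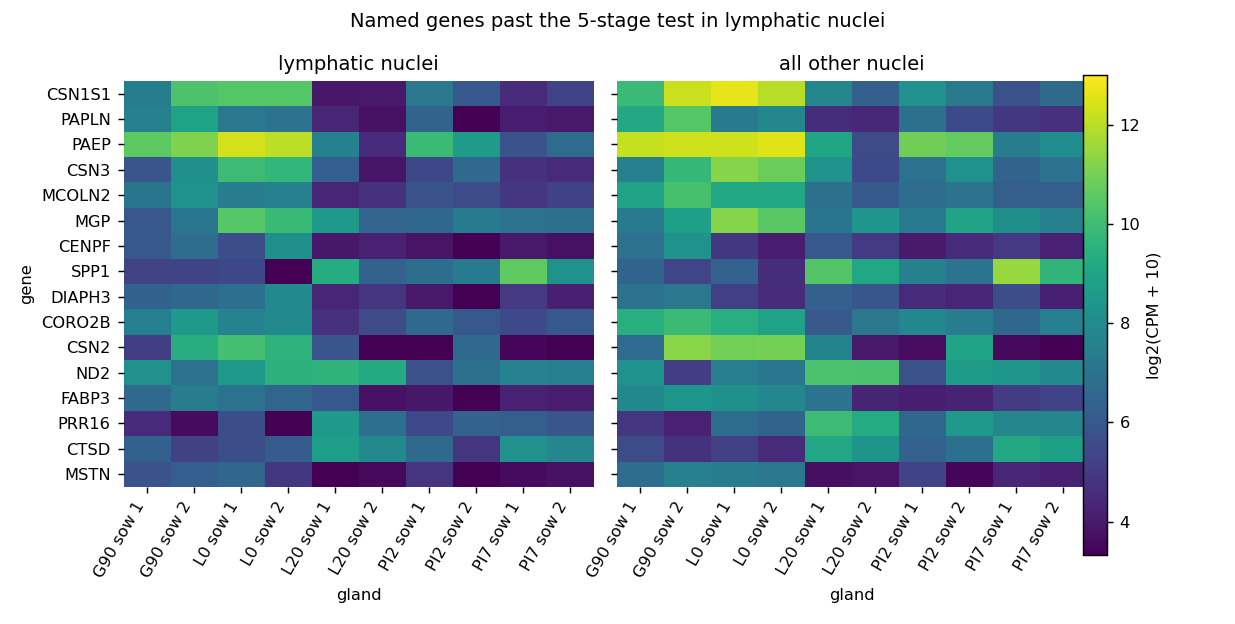
Levels of the 16 named genes that passed the 5-stage test in lymphatic nuclei, as log2 of CPM plus 10, in lymphatic nuclei (left) and all other nuclei (right) of the 10 glands. PAPLN is high in the G90 glands of both panels, at 559 and 1394 CPM on the right, and CSN1S1 in the L0 glands, at 1376 and 1398 CPM on the left.

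Levels of 2 cell cycle genes in lymphatic nuclei were higher at G90 and L0 than later. CENPF, a kinetochore protein (chr9:128948386-129012241), stood at 52.8 and 100 CPM in the G90 sows, 40.7 and 280 in the L0 sows, 5.36 and 8.42 in the L20 sows, 4.15 and 0 in the PI2 sows, and 5.75 and 3.45 in the PI7 sows (5-stage adjusted p = 0.00865, edgeR). DIAPH3, a formin of the contractile ring (chr11:32492735-32994854), stood at 70.0 and 84.1, 106 and 240, 10.7 and 18.3, 5.93 and 0, and 20.3 and 8.05 CPM in the same order (adjusted p = 0.0181). Both were higher in each of the 4 glands of G90 and L0 than in any later gland, and they were the 2 of 21 tested cell cycle genes called, against 0.177% of all genes. Few nuclei carried them: in L0 sow 2 all 14 CENPF and all 12 DIAPH3 UMIs lay in 1 nucleus, and in L0 sow 1 the 13 DIAPH3 UMIs lay in 2. CENPF was not called without L0 sow 2 or without PI2 sow 1, and DIAPH3 not without either L0 sow or without PI2 sow 1. The split of G90 and L0 from the later stages was no planned comparison and was chosen after these values were seen. Some cell cycle genes that were not called, TOP2A and SMC4 among them, were also higher in each early gland than in any later one. The share of all genes that do so is not given here.

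Over all glands 35 of 4412 lymphatic nuclei (0.793%) had UMIs of 5 or more of 24 cell cycle genes. The G90 sows had 13 (3.42%) and 8 (3.72%), the L0 sows 2 (2.78%) and 1 (2.78%), the L20 sows 0 and 6 (0.681%), the PI2 sows 1 (0.103%) and 0, and the PI7 sows 4 (0.349%) and 0. The glands without one allow, by the exact 95% interval, up to 2.58% (L20 sow 1), 10.3% (PI2 sow 2) and 0.683% (PI7 sow 2). All other nuclei had 7.17% and 13.2% at G90 and 1.32% and 0.533% at L0, so that lymphatic nuclei lay below them at G90 and above them at L0, there with 3 nuclei in all. After thinning to 1000 UMIs the lymphatic shares were 2.75% and 2.94% in the G90 sows, 2.00% and 5.88% in the L0 sows and 0 to 0.266% later. Each of these L0 shares is 1 nucleus, of 50 and of 17, with exact 95% intervals of 0.0506 to 10.7% and 0.149 to 28.7%. With UMIs of 2 or more cell cycle genes as the limit the early glands did not all lie above the later ones: the share was 22.4% and 29.3% in the G90 sows, 16.7% and 8.33% in the L0 sows and 5.67 to 24.35% later, highest in PI7 sow 1. After thinning it was 12.7% and 14.1%, 12.0% and 5.88%, and 3.33 to 10.1% later. Over all glands, 2 or more cell cycle genes were present in 17.4% of lymphatic nuclei and in 166 of 928 blood vessel nuclei (17.9%). After thinning these were 7.53% and 6.09%. With 5 or more genes as the limit, blood vessel nuclei had 7 of 928 (0.754%).

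The added test against all other nuclei called 60 genes (0.532% of all genes tested), of which 11 belong to the gene lists, and those named here were chosen after their values were seen. All other nuclei are a sum over many cell types, whose proportions the paper reports to change with stage. A call can thus come from lymphatic nuclei or from the mix of the others, and this test cannot tell them apart. NRP2 held a like level in lymphatic nuclei of all glands (454 to 750 CPM) while all other nuclei ranged from 9.94 to 150 CPM. Its log2 ratio to all other nuclei was 4.48 at G90, higher still at L0, and 2.63 to 2.72 at the 3 later stages (adjusted p = 0.0104, edgeR). APOLD1, an endothelial gene that answers to stress and flow, stood at 195 and 380 CPM in lymphatic nuclei at L0 and 18.0 to 121 in the other glands, and at 11.8 CPM or less in other nuclei (adjusted p = 0.0104). SEMA3A, a guidance cue needed for lymphatic valves, stood at 545.5 and 459.5 CPM at L0 and 63.25 to 245 elsewhere (adjusted p = 0.0145). FOXP2 went the other way at L0, with a log2 ratio of 2.92 at G90 and -1.24 at L0, while its lymphatic level was 300 to 420 CPM at both. This count moved with single glands. Without L0 sow 2 and L0 sow 1, which hold 36 and 72 lymphatic nuclei, 0 and 4 genes were called, and 457, 323, 468, 95 and 231 without G90 sow 1, G90 sow 2, L20 sow 1, L20 sow 2 and PI2 sow 2. Within lymphatic nuclei alone neither APOLD1 nor SEMA3A was called over the 5 stages (edgeR adjusted p = 0.368 and 0.298).

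Of the 7737 genes that could be tested for a different change in lactation between lymphatic and blood vessel nuclei, 0 passed (0%), 280 had an unadjusted p under 0.05, and DESeq2 called 0. Without G90 sow 1 edgeR called 16, and with any 1 gland of L0, L20 or PI2 left out it called 1 to 3. The lowest p values belonged to GPNMB, TEAD1, ACKR1, NR2F1 and ACTA2, each with an adjusted p of 0.863. TEAD1, a transcription factor of the Hippo pathway, stood at 699 and 684 CPM in lymphatic nuclei of the G90 sows, 179 and 180 of the L0 sows, 204 and 452 of the L20 sows, 373 and 342 of the PI2 sows, and 395 and 276 of the PI7 sows. Its interaction with lactation was -1.40 ± 0.37 (log2 ± SE).

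In the comparisons of adjacent stages without calls, the lowest p values belonged at PI2 against L20 to ND2, CCL5, CSN1S1, ND3 and ND5, and at PI7 against PI2 to PAPLN, PAEP, RPL14, SPP1 and MMP9. None of the first group had an adjusted p under 0.112, and those of the second group were 0.999. From G90 to L0, the lowest p values after the called gene were those of MGP, RARB, C3, NALCN and RNASE4. RARB, a retinoic acid receptor, had no UMI in the lymphatic nuclei of either L0 gland, where 3 UMIs would have been 24.4 and 59.9 CPM, and stood at 54.0 to 116 CPM in the 8 others. C3, complement component 3, stood at 40.5 and 22.7 CPM at G90 and 635 and 599 at L0, below all other nuclei at L0 (944 and 1121 CPM).

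The interferon and antigen presentation list set G90 sow 2 apart. Its 29 measured genes summed to 10690 CPM in lymphatic nuclei of that gland and to 1123 to 3065 CPM in the 9 others. OAS2, an interferon-induced antiviral enzyme, stood at 1352 CPM there and 24.4 to 234 elsewhere, and RSAD2, chosen after its values were seen, at 681.5 CPM there and 0 to 79.4 elsewhere. The other nuclei of the gland were high as well, at 8398 CPM, and its 12 blood vessel nuclei at 18040 CPM. No gene of the list passed a stage test, and the median log2 change of its tested genes from G90 to L0 was -1.99.

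Lymphatic nuclei with MMRN1 were split by LYVE1, the receptor that is stronger in capillaries than in collectors: 1837 had UMIs of both and 2197 of MMRN1 alone, while 378 members had LYVE1 without MMRN1. A UMI of LYVE1 can be missed in a shallow nucleus, and median UMIs per gland were 953 to 2192 with it and 1028.5 to 2119 without it. Since LYVE1 belongs to the rule and chose both subsets, no test was made, and genes are named by the size of their ratio, after their values were seen. Of 10099 genes with enough UMIs, 49 were higher and 47 lower with LYVE1 in all 10 glands, and the median log2 ratio over all of them was -0.01.

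CCL21 was higher with LYVE1 in all 10 glands (median log2 ratio 1.13, CPM with 20 added). With LYVE1 it stood at 765 and 371 CPM in the G90 sows, 3172 and 877 in the L0 sows, 153 and 998 in the L20 sows, 1104 and 304 in the PI2 sows, and 978 and 2287 in the PI7 sows. Without LYVE1 it stood at 256 and 86.5, 731 and 525, 103 and 204, 446 and 249, and 482 and 1161 CPM. SCN3A, a sodium channel subunit, and LIMS1, an adaptor of integrins, were also higher with LYVE1 in all 10 glands (1.08 and 0.90). PTX3, a secreted pattern recognition protein, was the gene with the largest median ratio (1.51), in 9 of 10 glands. MRC1 (0.78) and the mechanosensitive channel PIEZO2 (0.72) were higher in 9.

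FOXP2 was lower with LYVE1 in all 10 glands (median log2 ratio -1.37). It stood at 139 and 217 CPM in the G90 sows, 260 and 125 in the L0 sows, 166 and 76.7 in the L20 sows, 99.4 and 0 in the PI2 sows, and 144 and 162 in the PI7 sows with LYVE1. Without LYVE1 the levels were 504 and 627, 498 and 630, 308 and 667, 228 and 249, and 383 and 268 CPM. At L0 the level of FOXP2 was higher in all other nuclei than in lymphatic nuclei, and the part of other cells in its subset levels was not tested. Other genes of the valve and collecting vessel list were not all lower with LYVE1. ITGA9 was higher with LYVE1 in 9 of 10 glands (0.44). CLDN11 was lower in 7 glands and higher in 3 (-0.22), and GJA4 was lower in 6 and higher in 3 (-0.20). The alarmin IL33 was lower with LYVE1 in 9 of 10 glands (-1.27). GRIP1 was lower in all 10 (-1.19), but its level in all other nuclei, 126 to 1439 CPM, exceeded that in lymphatic nuclei of every gland, and the part of other cells in it was not tested. KRT8, an epithelial keratin, was present in a median of 4.601% of nuclei with LYVE1 and 4.57% of those without. These medians hide the direction within glands. KRT8 was more frequent without LYVE1 in the G90 sows, L20 sow 1, PI2 sow 1 and the PI7 sows. It was more frequent with LYVE1 in L20 sow 2 and in PI2 sow 2, which had 9 nuclei with LYVE1 and 22 without. In the L0 sows KRT8 was absent from these nuclei. GRHL2, an epithelial transcription factor with a higher level in all other nuclei of every gland, was lower with LYVE1 in all 10 (-0.91). MMRN1 was higher with LYVE1 in all 10 glands (0.62), FLT4 in 9 (0.66) and PROX1 in 8 (0.45). Of the other rule markers, RELN was higher in 7 glands, GPM6A in 6 and TBX1 in 3. A member with MMRN1 but no LYVE1 had to carry FLT4, TBX1, RELN or GPM6A, while a member with both needed none of them. Differences of these markers between the subsets are therefore set in part by the rule. What other cells add to either subset was not tested.

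**Figure D5:**
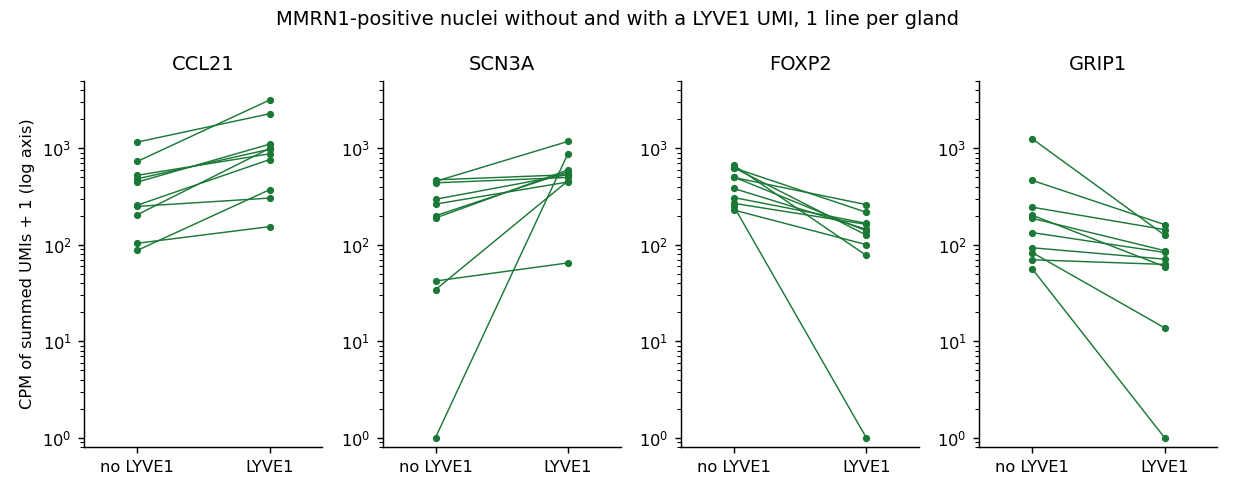
CPM plus 1, on a log axis, of CCL21, SCN3A, FOXP2 and GRIP1 in MMRN1-positive lymphatic nuclei without and with a LYVE1 UMI, with 1 line for each of 10 glands; a point at 1 has no UMI. All lines rise for CCL21 and SCN3A and fall for FOXP2 and GRIP1.

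In the sections a spot covers several cells, so the same markers mark regions, and fewer cells or less RNA per cell cannot be told apart there. Spots with MMRN1 or LYVE1 and at least 2 of the 6 markers were 242 of 4721 at G90 (5.13%, exact 95% interval 4.51 to 5.79%) and 99 of 2248 at PI2 (4.40%, 3.59 to 5.34%). CCL21 was present in 29.3% of those spots and 1.63% of the others at G90, and in 47.5% and 3.49% at PI2. PROX1 was rare, in 3 of 242 spots against 0.469% of the others at G90 and in 4 of 99 against 0.233% at PI2. The marked spots were not deeper than the others, with medians of 7309.5 against 8093 UMIs at G90 and 4443 against 6096 at PI2. Each stage had 1 section, so the sections give no comparison between stages.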

How the data were processed

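Nuclei were prepared with the GEXSCOPE kit, and the authors counted reads with CeleScope on Sscrofa11.1 (annotation release not given in the sources used here). The deposited values are raw UMI counts per gene and barcode, with barcodes already called as cells, and raw counts per spot for the sections. Of 30042 gene identifiers 15970 had a symbol in the files and 624 more took one from the reference tables, and positions come from RefSeq, matched by symbol.

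The members, the 17 gene lists and the 10 marker lists were chosen with earlier results of these data known. UMIs were summed per gland and kind of nuclei (at least 5 nuclei). Stages were compared in one edgeR quasi-likelihood fit over all 10 glands (TMM, low counts filtered; biological coefficient of variation 0.437), with calls at a Benjamini-Hochberg adjusted p under 0.05 and, for contrasts between groups, a log2 fold change over 1. The comparison with blood vessel nuclei kept the gland as a block. Shares were compared by exact permutation over glands. Lists are described by counts and medians beside those of all genes tested. Levels of different genes are not compared, since counts are not scaled by gene length.

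Named genes are the members of the rule; from each list its called members or else up to 4 with the highest mean CPM; per comparison the called genes or else the 5 with the lowest p; and the 10 with the largest ratio over blood vessel nuclei. Others lie outside this rule and were named with their values known, PROX1, ACKR4, VEGFC and FOXC2 among them, and only some are marked so. Log ratios between kinds of nuclei used CPM plus 10, and between LYVE1 subsets CPM plus 20. Doublets were kept, as Scrublet's own limit marked almost no barcode in 8 of 10 glands. The lactation contrast was tested on simulated data, where false calls took a larger part of all calls than the adjusted p allows, so calls near the threshold are less sure than their p. Alternatives were another normalization, filter, tool, fit or member rule, a replicate block, and each gland left out. Chosen after seeing the data were AQP1 matched by identifier, the highest 5% of Scrublet scores left out, PTPRC and CSF1R at 0, and the stage pattern against all other nuclei. Tools were R 4.3.3, edgeR 4.0.16, limma 3.58.1, DESeq2 1.42.0, Python 3.11.15, SciPy 1.17.1, NumPy 2.4.6, scanpy 1.11.5 and matplotlib 3.10.9.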

Additional observations from a re-analysis of the deposited data

Results flagged for a closer look

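Of 44 groups of 4 or 6 glands examined for a gland far from the rest, 5 held one, where chance gives about 1 in 20. The share of lymphatic nuclei in L20 sow 2 was 5.75%, against 0.382 to 1.09% in the other 3 lactation glands. Summed levels in lymphatic nuclei of G90 sow 2 were 10690 CPM for the interferon and antigen presentation list (1123 to 3065 in the other 5 glands outside lactation) and 6241 CPM for the milk genes (139 to 1929). In PI7 sow 2 the leukocyte traffic list summed to 4575 CPM, against 2592 to 3118 in the other 5. In L20 sow 2 the matrix list summed to 6499 CPM, against 7230 to 7277 in the other 3 lactation glands.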

How the results depend on the processing

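Numbers of called genes moved more than directions did, and the causes of these moves were not tested. Without a filter on low counts, 35 genes were called at G90 against L0, 35 at L0 against L20, 18 at L20 against PI2, 8 at PI2 against PI7, 45 in lactation against the other stages and 188 over the 5 stages. DESeq2 gave 2, 20, 4 and 0 for the adjacent stages, 11 for lactation and 45 over the 5 stages. A fit of only the 2 stages compared gave 4 genes at G90 against L0, 3 at L0 against L20 and 4 at PI2 against PI7. Library size without TMM gave 10 at L0 against L20. With AQP1 matched by identifier 1 gene was called at L20 against PI2 and 5 in lactation, and with at least 3 of 6 markers 36 genes differed over the 5 stages.

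With 1 gland left out the numbers ranged from 0 to 27 at G90 against L0, 1 to 42 at L0 against L20, 0 to 30 at L20 against PI2, 0 to 7 at PI2 against PI7, 0 to 44 in lactation, 9 to 213 over the 5 stages and 0 to 16 for lactation by kind of vessel. For the added test against all other nuclei they ranged from 0 to 468. At L0 against L20 the 1 came without either L0 sow. No called gene with a log2 fold change changed its direction in these alternatives, and list medians, LYVE1 subsets and uncalled genes were not recomputed under them. All 3 tests of shares stayed outside the threshold in every alternative. With 1 gland left out, lactation differences were -3.44 to -1.44 percentage points of all nuclei and -22.2 to -8.33 of lymphatic plus blood vessel nuclei.

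A replicate block gave 1, 11, 0 and 0 genes for the adjacent stages, 5 in lactation and 28 over the 5 stages, and leaving the gland out of the vessel comparison gave 0. For the shares, permuting within replicate numbers moves only the exact permutation p, to 0.433 between stages. For the lactation differences in all and in lymphatic plus blood vessel nuclei, that exact permutation p was 0.26 and 0.23. Sows with the same number did not deviate together (correlations of -0.358 to 0.254), so the numbers are no pairing.

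The planned removal of doublets by Scrublet's own limit was not run, since it marked almost none in 8 of 10 glands, and a minimum of 20 nuclei left out no gland's lymphatic nuclei. Depth limits the L0 glands and PI2 sow 2 most, where 3 UMIs stand for 24.4, 59.9 and 54.0 CPM.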
